A study of Mus musculus with 8 samples.

Results

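Hspa5, Hsp90b1, Pdia4, Pdia6, Calr, Canx, Xbp1, Ddit3, Atf4 and Trib3, 10 genes of the unfolded protein response, were followed in mouse glomerular mesangial cells (MMC) with and without miR-379. They were taken by symbol from lists of 24639 gene entries and all 10 were found. Of them 6 encode chaperones or folding enzymes of the endoplasmic reticulum (ER). The other 4 are called the ATF4/CHOP side here, a loose label for Xbp1, as set out below. In total RNA none of these genes differed detectably between the genotypes. RNA recovered with AGO2, the Argonaute protein that carries microRNAs, was also compared. There 8 of the 10 were lower in miR-379KO than in WT MMC, at 0.456 to 0.605 times the WT level. Of all genes tested 9.43% were lower, and 19.5% of those averaging 500 or more total RNA counts, as all 10 did. Above 5000 counts, where 6 of the 10 stood, 45.5% of genes were lower. The count of 8 depended on both B libraries of AGO2-IP. DESeq2 called 4 of the 10 lower, against 2.33% of all genes tested and 5.13% of the abundant ones. A minimum mean count of 50 left 0 of 8, against 0.80% and 0.88%. In edgeR 0 genes passed a test of the AGO2-IP change beyond the total RNA change.

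MMC are the contractile support cells of the kidney glomerulus, grown here as primary cultures from pooled glomeruli of C57BL/6J mice. The medium was RPMI 1640 with foetal bovine serum, and the sample titles name no treatment of the cultures. WT MMC came from wild-type mice and miR-379KO MMC from mice homozygous for a short deletion at miR-379 made with CRISPR-Cas9 nickase. The 8 libraries fell into 4 groups of 2 replicates, A and B: WT and miR-379KO, each as total RNA and as AGO2-IP. The study's methods describe MMC prepared from male mice of an experiment with streptozotocin-injected (diabetic) and buffer-injected animals. Which mice gave these cultures, whether they had been injected and their age at culture are not given in the sources used here. Nor is it given whether a total RNA and an AGO2-IP library of one letter shared a culture. The p-values therefore measure the spread between these libraries, which may be partly technical.

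Total RNA libraries held 17168230 to 22660743 gene counts and AGO2-IP libraries 5587611 to 17095021, of which 1115782 to 1875037 remained outside Rn45s and Lars2, a pair of genes that collect ribosomal RNA reads. The AGO2-IP libraries of the genotypes stood apart from each other in reads outside genes, at 48.1% ± 2.20 (SD, n = 2) of uniquely placed reads in WT and 74.9% ± 2.10 in miR-379KO. Genes without a count in any total RNA library (3831 protein-coding genes) also collected more reads in miR-379KO AGO2-IP, 2.44 and 2.83 counts per kb of exon against 1.13 and 0.725 in WT. Mesangial and stromal markers summed to 27542 to 33088 CPM, the usual depth-scaled count unit, in total RNA. Podocyte markers summed to 240.1 to 628 CPM with Ptpro at 0, tubule markers to 9.06 to 32.4 with Slc34a1, Umod and Slc12a3 at 0, macrophage markers to 4.46 to 13.4 and endothelial markers to 0.0587 to 2.17. The Mir379 entry had 0 counts in all total RNA libraries and in AGO2-IP 0 (A) and 4 (B) for WT and 1 (A) and 0 (B) for miR-379KO, too few to check the genotype labels.

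The unfolded protein response is the programme by which a cell with misfolded protein in its ER slows translation and makes more folding machinery. Of its sensors in the ER membrane, IRE1 splices the mRNA of XBP1, ATF6 is cut to release a transcription factor, and PERK phosphorylates eIF2alpha, which favours translation of ATF4. ATF4 in turn induces CHOP, the product of Ddit3, and both induce Trib3. Xbp1 thus belongs to the IRE1 branch and was only grouped with Ddit3, Atf4 and Trib3 here. Mesangial cells secrete much of the glomerular matrix, so their ER handles a heavy load of collagen and other secreted protein.

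Most promoters of the chaperone genes carry a common sequence element, shown here because it was found on one side of the list only and its search used no measured level. The ER stress element consists of CCAAT, 9 bases of any kind and CCACG, and is read by ATF6 and XBP1 together with the general factor NF-Y. In RefSeq windows of 250 bases before to 50 bases after the annotated start (GRCm38.p6), it was found on either strand in 39 of 32851 windows (0.119%). It was present in 5 of the 6 chaperone genes and in 0 of the 4 ATF4/CHOP-side genes. The matches are printed 5′ to 3′ on the strand of the gene, with both ends of the element in capitals. Where it lies on the opposite strand, the capitals read CGTGG and ATTGG.
Hspa5, chr2:34772020-34772048, plus strand: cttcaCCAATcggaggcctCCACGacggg
Hsp90b1, first match, chr10:86705633-86705661, minus strand: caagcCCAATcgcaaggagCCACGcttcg
Hsp90b1, second match, chr10:86705528-86705556, minus strand: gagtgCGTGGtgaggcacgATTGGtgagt
Pdia6, chr12:17266486-17266514, plus strand: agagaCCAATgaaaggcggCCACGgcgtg
Calr, chr8:84847070-84847098, minus strand: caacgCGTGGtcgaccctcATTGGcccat
Canx, chr11:50325795-50325823, minus strand: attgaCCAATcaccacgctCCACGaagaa

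The element lay closest to the start in Hspa5, from 65 to 47 bases before it, and farthest in Hsp90b1, whose first match ran from 212 to 194 bases before it. The window of Pdia4 (gene at chr6:47796141-47813512) held the CCACG part once but not the whole element. The ATF4/CHOP-side genes without it were Xbp1 (chr11:5520641-5525993), Ddit3 (chr10:127290793-127296291), Atf4 (chr15:80255184-80257545) and Trib3 (chr2:152337425-152344060). Among the other ER chaperones and folding enzymes, 2 of 23 genes with a window had it, as did 2 of 7 ER-associated degradation genes and 0 of 26 ATF4 and CHOP target genes.

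The C/EBP-ATF element, to which ATF4 and CHOP bind with C/EBP partners, was searched as TGATG, any base and AA on both strands, and stood in 1304 of the 32851 windows (3.969%). Of the 10 genes only Trib3 held it in this window, 14 to 21 bases after the start, and it is shown on the strand of the gene, where it reads in the opposite direction.
Trib3, chr2:152344034-152344051, minus strand: caggtTTACATCAgccgg

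Among the ATF4 and CHOP target genes 10 of 26 held it. A match of letters is a description of the window and says nothing of binding.

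**Figure D1:**
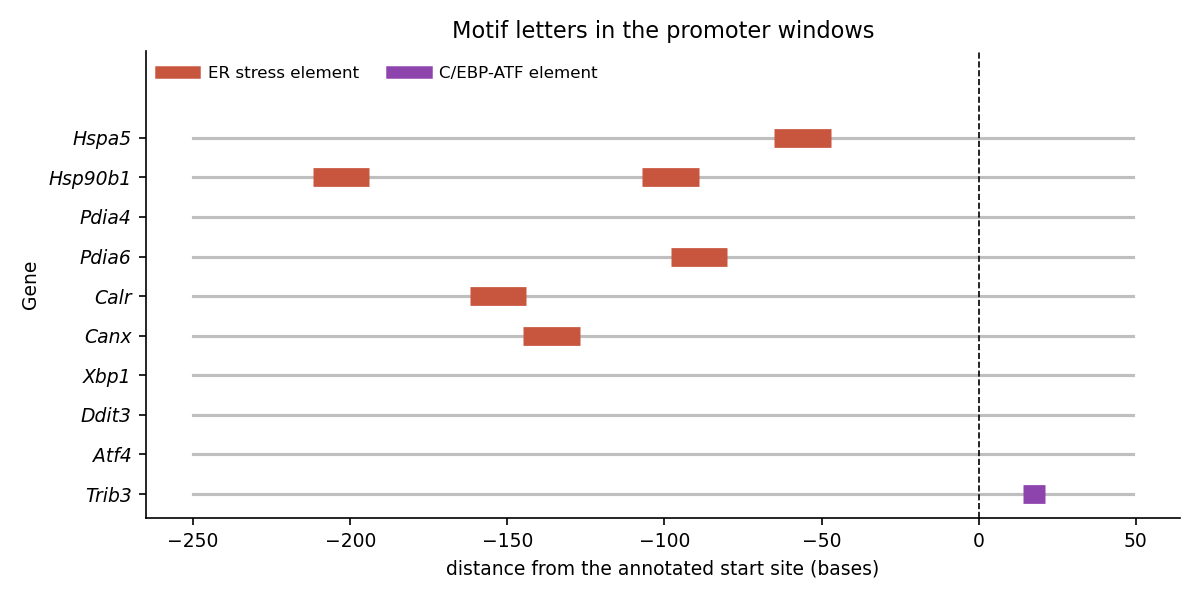
Each grey line is the promoter window of a gene, plotted as distance in bases from the annotated start site, with ER stress element letters in orange-red and C/EBP-ATF element letters in purple. The orange-red blocks sit before the start of 5 chaperone genes, with 2 blocks in Hsp90b1, and the purple block lies 14 to 21 bases after the start of Trib3.

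The transcripts were also searched for the target letters of miR-379. Mature mmu-miR-379-5p (chr12:109709065-109709085, plus strand, GRCm38.p6) is shown with bases 2 to 8, its seed, in capitals.
mmu-miR-379-5p: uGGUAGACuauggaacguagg

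The complement of the seed, GTCTACC, stood in the longest annotated 3′-UTR of 776 of 19165 entries (4.049%) and in 0 of the 10 genes. For comparison, Edem3, an ER-associated degradation mannosidase gene and a known target of miR-379, holds these letters at chr1:151821022-151821028 on the plus strand, in capitals here.
Edem3: agaaacatctgGTCTACCtcagttaaatg

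Levels were first compared between the genes in WT total RNA, per kb of exon to lessen the effect of length. Exon length here joins all annotated exons of a gene and can exceed that of a single transcript. Calr, a calcium-binding lectin chaperone, was the highest at 539 ± 91.9 CPM per kb (SD, n = 2), followed by Hspa5, the Hsp70 chaperone BiP of the ER, at 283 ± 7.98 and Hsp90b1, the Hsp90 chaperone GRP94, at 274 ± 66.2. Atf4 at 173 ± 25.3, Canx, the membrane-bound lectin chaperone calnexin, at 171 ± 28.7, and Pdia6, a disulfide isomerase, at 136 ± 15.2 came next. Pdia4, another disulfide isomerase, stood at 74.5 ± 10.8 and Xbp1 at 57.2 ± 9.43. Trib3 at 24.3 ± 16.9 and Ddit3 at 14.7 ± 1.84 were the lowest. Neighbours whose means ± SD overlapped were Hspa5 and Hsp90b1, then Atf4, Canx and Pdia6, then Pdia4 and Xbp1, and finally Trib3 and Ddit3. In WT AGO2-IP the levels per kb ran from 63.8 ± 10.8 for Calr to 2.43 ± 0.283 for Ddit3. Atf4, with 16.8 ± 4.47, then stood below Canx (28.1 ± 3.67) and, within the SD, Pdia6 (23.7 ± 5.28). The joined exons of Ddit3 come to 2542 bases, so a shorter transcript would put its level per kb higher. Without division by length, Ddit3 (37.3 ± 4.67 CPM) and Trib3 (49.8 ± 34.6) were also the lowest in WT total RNA. In WT AGO2-IP, Trib3 (5.28 ± 3.60 CPM) then lay below Ddit3 (6.17 ± 0.721), within the SD.

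CPM values of the assays are not on a common scale, because Rn45s and Lars2 take most AGO2-IP counts. Summed and set against the counts outside Rn45s and Lars2, the 10 genes made up 0.463% and 0.472% in WT, against 0.433% and 0.475% for miR-379KO total RNA. In AGO2-IP the share was 0.326% and 0.399% in WT against 0.280% and 0.250% in miR-379KO, so that both miR-379KO libraries lay below both WT libraries. The 4 ATF4/CHOP-side genes supplied 10.3% and 13.7% of the summed counts in WT, against 11.4% and 12.4% for miR-379KO total RNA, and 7.87% and 9.04% in WT, against 8.42% and 8.39% for miR-379KO AGO2-IP. The balance between the sides thus overlapped between genotypes in either assay.

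**Figure D2:**
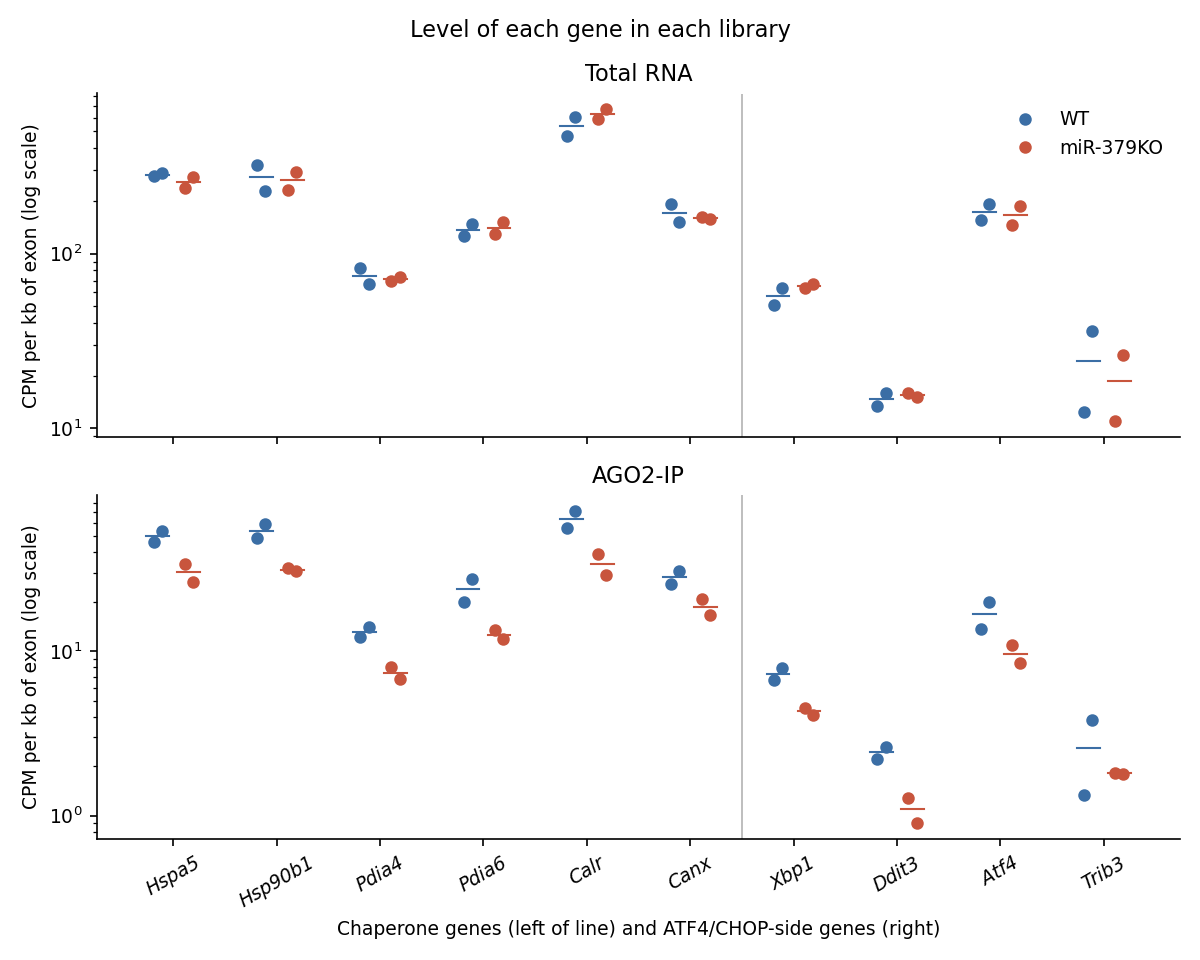
CPM per kb of exon on a log axis for each gene in each library, total RNA above and AGO2-IP below, with WT in blue, miR-379KO in orange-red, a point per library and a line at the mean of 2. In total RNA the colours interleave for 9 genes (the genotypes were apart in 19% of all genes tested), whereas in AGO2-IP both miR-379KO points lie below both WT points for 9 genes, all but Trib3, as for 32.2% of all genes tested and 59.1% of those averaging 500 or more total RNA counts.

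The first comparison asked whether the steady-state mRNA of these genes differs in miR-379KO MMC. It did not do so detectably: 0 of the 10 passed the edgeR quasi-likelihood test (adjusted p under 0.05 over 12321 genes), and 0% of all genes tested did. At an unadjusted p under 0.05 there were 0 of the 10 and 91 genes in all, and DESeq2 called 0 genes. In bulk RNA, fewer cells of a type and less RNA per cell cannot be told apart.

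Hspa5 had 725 and 754 CPM in the WT libraries, against 624 and 714 for miR-379KO total RNA, a change of −0.14 ± 0.25 (log2, SE). It was the single member whose genotypes did not overlap, by a small margin, as for 19% of all genes tested. Hsp90b1 had 886 and 628 CPM in the WT libraries, against 641 and 807 for miR-379KO, with the replicates of each genotype farther apart than the means.

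Calr had 921 and 1173 CPM in the WT libraries, against 1142 and 1304 for miR-379KO, a change of 0.22 ± 0.27. Canx had 821 and 647 against 691 and 676, Pdia4 218 and 177 against 184 and 195, and Pdia6 269 and 315 against 276 and 324. The miR-379KO values of these folding genes fell inside or partly inside the WT range.

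On the ATF4/CHOP side, Ddit3, which encodes the pro-apoptotic factor CHOP, had 34.0 and 40.6 CPM in the WT libraries, against 40.4 and 38.2 for miR-379KO total RNA. Atf4 had 269 and 330.4 against 251 and 325, and Xbp1 114 and 144 against 142 and 150.4. The deposited counts join the spliced and unspliced forms of Xbp1, so its activation by splicing was not measured.

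Trib3, a pseudokinase that restrains AKT and is itself a CHOP target, varied far more within a genotype than between them. It had 25.4 and 74.3 CPM in the WT libraries, against 22.4 and 54.1 for miR-379KO. Its log2 change of −0.38 had an SE of 0.62 and a 95% interval from −1.59 to 0.82, taken as a normal interval from the SE. Such intervals do not allow for an SE that rests on few libraries and are too narrow. For Trib3 a 2-fold change in either direction is therefore not excluded. For the other 9 genes the same kind of interval lay between −0.64 (Hsp90b1, lower end) and 0.76 (Calr, upper end). A 2-fold change in either direction lay outside these intervals, with the same limit.

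The second comparison asked whether the same mRNAs were recovered with AGO2 to the same extent. Here 8 of the 10 were lower in miR-379KO (edgeR quasi-likelihood test, adjusted p under 0.05 over 13505 genes), against 9.43% of all genes tested, and 0 were higher. By side, 5 of 6 chaperone genes and 3 of 4 ATF4/CHOP-side genes were lower, with a median log2 change of −0.79 over all 10 against −0.01 over all genes tested. All 10 averaged 500 or more counts in total RNA, and genes that abundant were shifted downward as a body: among 5981 of them the median was −0.38, the quartiles −0.62 and −0.12, and 19.5% were called lower.

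Ddit3 had the largest fall when no offset for GC content and exon length was used. Its AGO2-IP counts were 58 and 58 in WT, against 28 and 18 for miR-379KO, or 5.66 and 6.68 against 3.27 and 2.29 CPM, a log2 change of −1.13 ± 0.30 (edgeR adjusted p = 0.0080). These are the smallest counts of the list beside those of Trib3, and the exact Poisson interval of the lower miR-379KO library, 10.7 to 28.4 counts, covers counting error only. At the rate per kb of the genes silent in total RNA, a gene of this exon length would have collected 2.86 and 1.84 WT counts, against 6.21 and 7.20 for miR-379KO, the latter equal to 22.2% and 40.0% of the Ddit3 counts. The part of such reads in the Ddit3 result was not tested. With the offset Ddit3 changed by −1.18, less than Canx at −1.26. DESeq2 did not call Ddit3 (−1.18, DESeq2 adjusted p = 0.105).

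Atf4 had 23.6 and 34.5 CPM in the WT libraries, against 18.8 and 14.6 for miR-379KO AGO2-IP (−0.79 ± 0.24, adjusted p = 0.0165). Xbp1 had 14.9 and 17.7 against 10.2 and 9.16 (−0.75 ± 0.23, adjusted p = 0.0153). For both, the higher miR-379KO library lay below the lower WT library, as for 32.2% of all genes tested and 59.1% of abundant genes.

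Trib3 did not pass (−0.48 ± 0.41, edgeR adjusted p = 0.392). It had 2.73 and 7.83 CPM in WT, from 28 and 68 counts, and 3.74 and 3.69 in miR-379KO, from 32 and 29 counts. The miR-379KO values thus lay between those of the WT libraries.

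Among the chaperones, Calr had 109 and 139 CPM in the WT libraries, against 75.6 and 56.4 for miR-379KO AGO2-IP (−0.91 ± 0.27, adjusted p = 0.0148). Hspa5 had 120.4 and 141 against 89.1 and 68.9 (−0.72 ± 0.27, adjusted p = 0.0441), and Hsp90b1 135 and 164 against 88.0 and 85.1 (−0.79 ± 0.27, adjusted p = 0.0299). Each of the 3 kept its genotypes apart, as did 32.2% of all genes tested and 59.1% of abundant genes in this direction. Their counts were high enough that the silent-gene rate came to at most 1.37% of a library's count.

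The disulfide isomerases, which form and reshuffle the bonds between cysteines of client proteins, were lower as well. Pdia6 had 42.9 and 58.9 CPM in the WT libraries, against 28.7 and 25.4 for miR-379KO (−0.91 ± 0.25, adjusted p = 0.0084), and Pdia4 32.3 and 37.3 against 21.3 and 17.9 (−0.83 ± 0.23, adjusted p = 0.0101). Canx had 109.5 and 132 against 88.8 and 71.4 and did not pass (−0.59 ± 0.27, adjusted p = 0.0941). Its genotypes did not overlap either, as for 59.1% of abundant genes. Canx and Hsp90b1 have the lowest GC content of the list (42.1% and 43.1%), and once an offset for GC and length was added Canx had the second largest change, −1.26, and passed, whereas Atf4, at 54.1% GC, moved to −0.50 and did not.

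**Figure D3:**
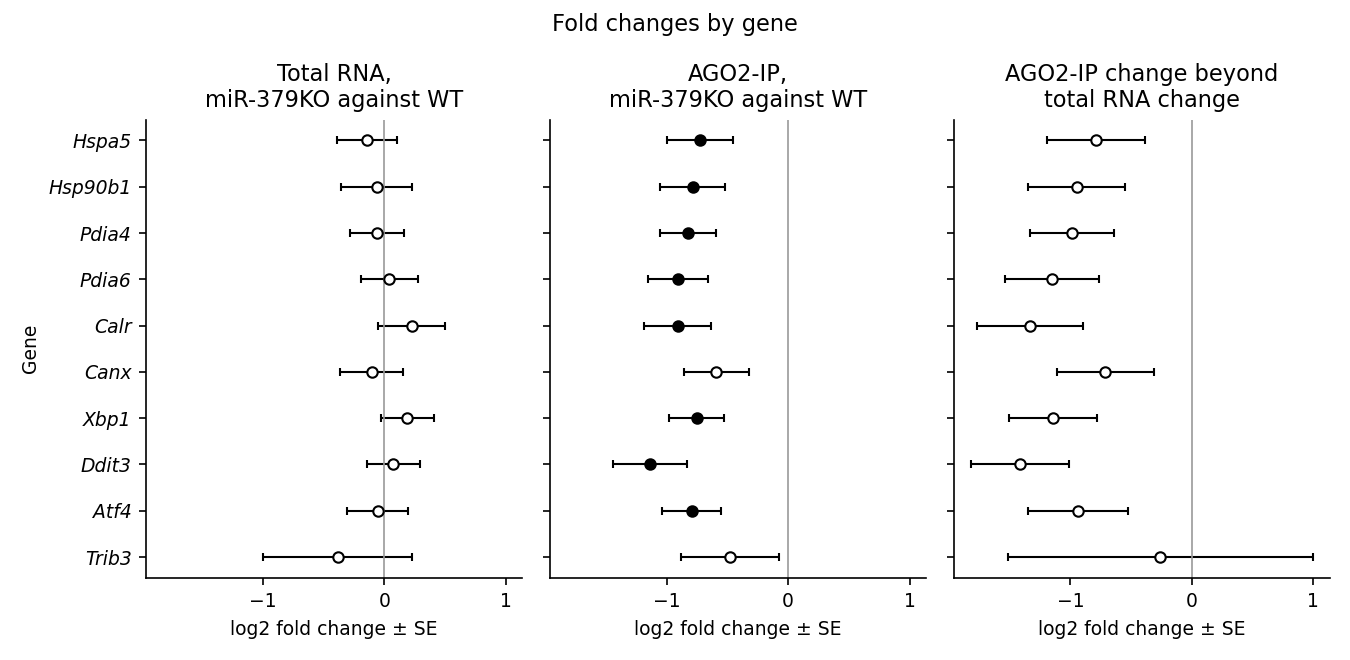
Log2 fold change with its SE for each gene in 3 comparisons on a common axis, with filled circles for genes that passed the edgeR test at an adjusted p under 0.05. Total RNA values scatter around 0 with no filled circle, 8 filled circles lie left of 0 in AGO2-IP, and the values of the AGO2-IP change beyond the total RNA change are all left of 0 and all open.

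The count of 8 depended on both B libraries of AGO2-IP. Without miR-379KO replicate B it was 0 and without WT replicate B 1, where 2.27% and 10.8% of the abundant genes were called lower. Without miR-379KO replicate A it was 7 and without WT replicate A 8, where 20.4% and 21.0% of them were. Each of these fits had 3 libraries left. DESeq2 called 4 of the 10 lower (2.33% of all genes tested and 5.13% of the abundant ones), and a minimum mean count of 50, which removed Ddit3 and Trib3, left 0 of 8 called, with 0.88% of the abundant genes called lower.

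Where the 10 genes stood among abundant genes was then described gene by gene. Of the 5981 abundant genes, 1.64% had a lower AGO2-IP log2 change than Ddit3, 6.19% than Calr, 6.27% than Pdia6 and 10.2% than Pdia4. The shares were 11.9% for Atf4, 12.5% for Hsp90b1, 14.2% for Xbp1, 16.4% for Hspa5, 27.4% for Canx and 39.1% for Trib3. The shift also deepened with abundance. Genes with a mean of 500 to 5000 total RNA counts had a median of −0.34 and 16.7% called lower, and the 4 members there (Ddit3, Trib3, Xbp1 and Pdia4) a median of −0.79. Genes above 5000 had a median of −0.64 and 45.5% called lower, and the 6 members there also a median of −0.79. Over the 14 alternative settings the median of the 10 genes (8 with the minimum mean count of 50) moved between −1.05 and −0.42. It stayed below that of all genes with 500 or more counts, by 0.31 to 0.58 on the log2 scale. The separate bands, of which the one above 5000 lay closer to the members, were not followed over the settings.

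**Figure D4:**
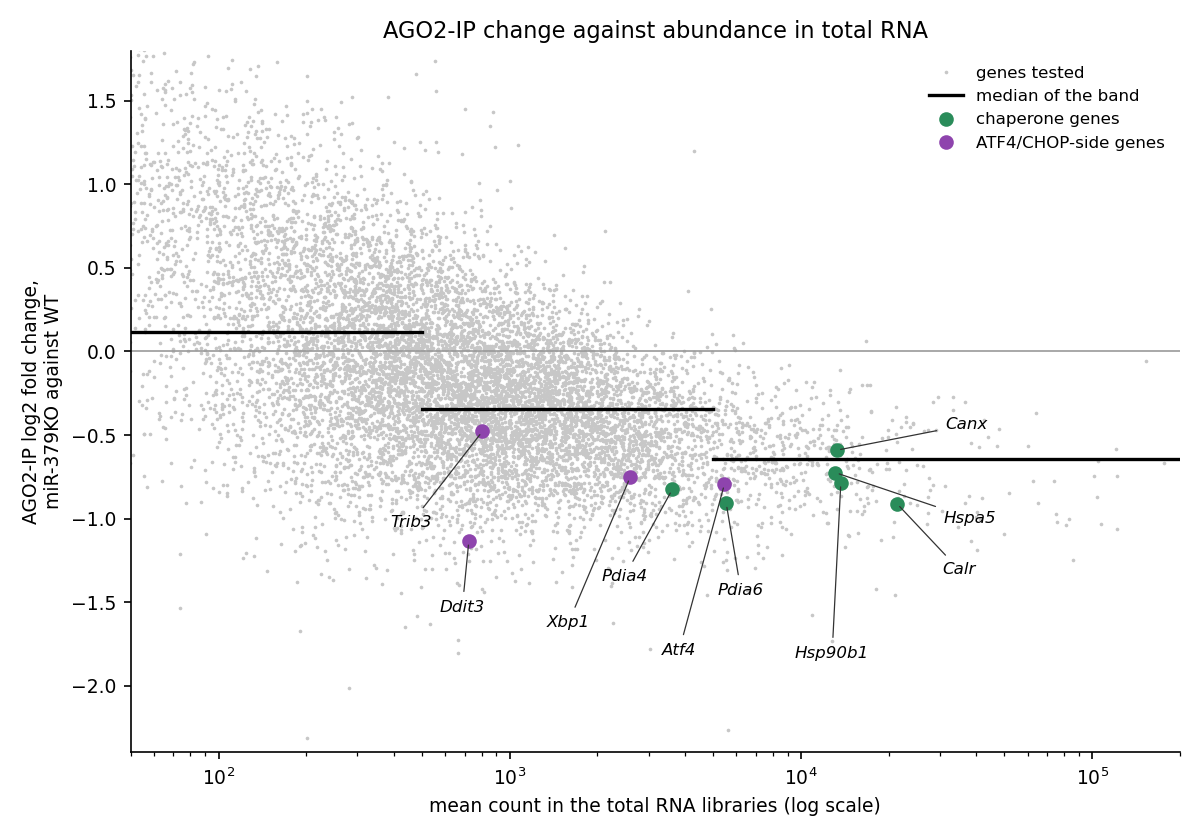
AGO2-IP log2 fold change against the mean total RNA count of each gene on a log axis, with 2361 of 12507 genes outside the plotted ranges, black lines at the median of genes with 50 to 500, 500 to 5000 and above 5000 counts, and the chaperone (green) and ATF4/CHOP-side (purple) genes named. The medians step down from 0.12 to −0.34 and −0.64, and 9 of the 10 named genes lie below the line of their own band, all but Canx.

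Ratios between members inside a library do not depend on how libraries are scaled. Ddit3 counts per Hspa5 count were 0.0470 and 0.0539 in WT, against 0.0647 and 0.0535 for miR-379KO total RNA, but 0.0470 and 0.0473 in WT, against 0.0367 and 0.0332 for miR-379KO AGO2-IP. The genotypes overlapped in total RNA and did not in AGO2-IP. The miR-379KO AGO2-IP ratios rest on 28 and 18 Ddit3 counts, with exact Poisson intervals of 18.6 to 40.5 and 10.7 to 28.4 counts. How often the ratios of other gene pairs fail to overlap was not counted. Calr per Canx was 1.12 and 1.81 in WT, against 1.65 and 1.93 for miR-379KO total RNA, and 0.997 and 1.05 against 0.851 and 0.790 in AGO2-IP, where the genotypes again did not overlap. Correction for GC content and exon length, in which these genes differ, does alter such ratios. It turned the difference between the AGO2-IP log2 changes of Calr and Canx from −0.32 to 0.43, and moved that between Ddit3 and Hspa5 from −0.41 to −0.20. Atf4 per Hspa5 overlapped in AGO2-IP, at 0.196 and 0.245 in WT against 0.211 and 0.212 for miR-379KO, and also in total RNA. Xbp1 per Hspa5 overlapped in AGO2-IP, at 0.124 and 0.126 in WT against 0.114 and 0.133 for miR-379KO. In total RNA Xbp1 per Hspa5 did not overlap, at 0.157 and 0.190 in WT against 0.228 and 0.211 for miR-379KO. Trib3 per Ddit3 overlapped in both assays. With 2 libraries a group an exact permutation test cannot give a two-sided p below 0.333, so none was run on these ratios.

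The third comparison asked directly whether the AGO2-IP change exceeded the total RNA change, as an interaction in one edgeR fit of all 8 libraries. All 10 values were below 0, from −1.42 ± 0.40 for Ddit3 and −1.33 ± 0.44 for Calr to −0.26 ± 1.25 for Trib3, with a median of −0.97. Of the 5986 abundant genes, 5300 were below 0 as well. None of the 10 passed the adjusted threshold (lowest adjusted p = 0.235, Ddit3), nor did any other gene (0% of the 17429 genes tested), while 7 of the 10 were lower at an unadjusted p under 0.05, against 10.9% of all genes tested and 28.2% of the abundant ones. The median was 0.01 over all genes tested and −0.59 over the abundant genes. Of the 17429 genes 2733 had such a p in either direction. DESeq2 called 1 of the 10 (0.574% of all genes tested were lower) and 120 genes. The offset for GC content and exon length gave 7 of the 10 and 1009 genes, with 14.9% of the abundant genes lower. Omission of WT total RNA replicate B gave 4 of the 10 and 1547 genes, with 21.3% of the abundant genes lower. A block for the letter within each genotype, chosen after seeing the data, gave 4 of the 10 (Pdia6, Calr, Xbp1 and Ddit3, edgeR adjusted p from 0.00940 to 0.0292) and 1105 genes, with 15.4% of the abundant genes lower.

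Recovery with AGO2 relative to total RNA was then taken within each genotype, where the assay and the library protocol change together. In WT MMC 0 of the 10 were at least 2-fold lower in AGO2-IP with an adjusted p under 0.05, against 7.33% of all genes tested and 17.6% of the abundant ones, and 0 were higher. Atf4 alone had an adjusted p under 0.05 (−0.88 ± 0.29, edgeR adjusted p = 0.0173) but was short of 2-fold. Values of 5 chaperone genes lay near 0, between −0.10 (Canx) and 0.17 (Hsp90b1), and Calr was at −0.59 ± 0.31. The median was −0.02 for the chaperone genes and −0.65 for the ATF4/CHOP-side genes, against −0.35 for the abundant genes.

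In miR-379KO MMC 5 of the 10 were lower in AGO2-IP than in total RNA by these criteria, against 19.3% of all genes tested and 45.9% of the abundant ones. They were Calr (−1.92 ± 0.32), Atf4 (−1.82 ± 0.30), Xbp1 (−1.63 ± 0.26), Ddit3 (−1.53 ± 0.30) and Pdia6 (−1.18 ± 0.28). Pdia4 (−0.99 ± 0.25), Canx (−0.81 ± 0.28), Hspa5 (−0.79 ± 0.29) and Hsp90b1 (−0.78 ± 0.29) also had adjusted p-values under 0.05 but were short of 2-fold, and Trib3 (−1.07 ± 0.91) did not pass. Both counts moved with the offset for GC content and exon length, to 9 of 10 in either genotype, where 65.7% of the abundant genes were lower in WT and 86.0% in miR-379KO.

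The rest of the pathway was described with lists of genes by role. In total RNA 0 genes of any list passed and 0 had an unadjusted p under 0.05. The smallest p-values there belonged to Sdf2 (0.34 ± 0.23) and Atf3 (1.10 ± 0.67) in the higher direction and to Ddit4 (−0.44 ± 0.21) and Fgf21 (−1.44 ± 0.68) in the lower. Atf3, a stress-induced factor of the ATF/CREB family, had 67 and 289 WT counts, against 651 and 244 for miR-379KO, a single high library.

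These list counts in AGO2-IP stand beside the 9.43% of all genes tested and 19.5% of abundant genes that were lower. In AGO2-IP, 10 of 30 other ER chaperones and folding enzymes were lower in miR-379KO and 0 higher, with a median of −0.60. Hyou1, the nucleotide exchange factor of BiP, had 519 and 566 WT counts, against 258 and 168 for miR-379KO (−1.17 ± 0.25). Serpinh1, the collagen chaperone HSP47, changed by −1.14 ± 0.32 and Fkbp10, a prolyl isomerase of collagen folding, by −1.08 ± 0.25.

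Of the ER-associated degradation genes, whose products return misfolded proteins to the cytosol, 5 of 7 tested were lower and 0 higher (median −0.70). They included Syvn1, the ubiquitin ligase HRD1 (−0.89 ± 0.22), Derl1 (−0.83 ± 0.23) and Herpud1 (−0.80 ± 0.25). Edem3 did not pass in AGO2-IP (236 and 203 WT counts, 175 and 128 for miR-379KO, −0.34 ± 0.22, adjusted p = 0.259) or in total RNA (−0.51 ± 0.36).

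Among ATF4 and CHOP target genes 10 of 28 tested were lower and 0 higher, with a median of −0.61. Pck2, a mitochondrial enzyme of gluconeogenesis, changed by −1.30 ± 0.24, Nupr1, a stress-induced chromatin protein, by −1.26 ± 0.26 and Shmt2, which moves one-carbon units in mitochondria, by −1.26 ± 0.25. Of the translocation genes 5 of 18 were lower and 0 higher (median −0.54), among them Sec61a1, the channel of the translocon (−0.89 ± 0.25), and the signal peptidase genes Spcs1 (−0.79 ± 0.25) and Sec11a (−0.76 ± 0.29).

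The sensors and transducers had the smallest share, 3 of 15 lower and 0 higher, with a median of −0.27. These 3 were Creb3l2 (−1.19 ± 0.24) and Creb3l1 (−0.83 ± 0.24), ER-anchored transcription factors, and Mbtps1, the protease that cuts ATF6 (−0.75 ± 0.23). In the interaction 0 genes of the lists passed, and the smallest p-values belonged to Ero1lb (1.10 ± 0.58) and Vldlr (0.14 ± 0.37) in the higher direction and to Hyou1 (−1.35 ± 0.39) and Phgdh (−1.46 ± 0.46) in the lower.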

How the data were processed

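Poly(A) total RNA and AGO2-bound RNA of WT and miR-379KO MMC were measured in 4 groups of 2 libraries. Lysates for AGO2-IP were UV cross-linked and sonicated, and adapters were ligated as for small RNA. Alignment by the authors was to mm10 (TopHat), and they deposited raw htseq-count counts per RefSeq gene, counted by strand, without normalization (submitters' processing notes: Bowtie2 2.1.0.1, HTSeq 0.6.0). Columns of fold changes or p-values were not used. The value of a single marker gene is not reported here. Reads outside genes, ambiguous or not uniquely placed stayed out of library sizes.

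edgeR 4.0.16 (R 4.3.3) was run on all genes, with TMM factors, filterByExpr (minimum 10), the robust quasi-likelihood test and Benjamini-Hochberg adjustment. A check on simulated data changed a limited set of genes in a profile shared by the genotypes. It therefore cannot vouch for the AGO2-IP calls, where abundant genes shifted as a body. SE was taken from the F statistic. Genotypes were compared on the 4 libraries of an assay, other contrasts on all 8. Alternatives included DESeq2 1.42.0 and those named in the closing section. Same-letter libraries did not deviate together between the genotypes, whereas those of one genotype did so between total RNA and AGO2-IP (r = 0.316 across 5313 genes in WT and 0.274 across 4249 in miR-379KO); this is a hint of shared cultures from the data, not from the labels, and the block for it was added after the data were seen. All listed genes were named. From each pathway list, up to 3 genes per direction were named by size of change among those called averaging 50 counts or more, or, where none passed, the 2 smallest p-values per direction over the lists. Members and lists were chosen with earlier results of these data known. Of 24639 entries, 127 had no annotation match. Sequences and windows came from RefSeq (GRCm38.p6), whose chromosomes are those of mm10.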

Additional observations from a re-analysis of the deposited data

Results flagged for a closer look

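Reads outside genes were noted because this signal lies outside the gene counts and was above its level in the control genotype. They made up 74.9% of uniquely placed reads in miR-379KO AGO2-IP against 48.1% in WT AGO2-IP, with no overlap between the libraries, and 7.61% and 6.73% in WT and miR-379KO total RNA. Their part in the lower AGO2-IP counts of the chaperone and ATF4/CHOP-side genes was not tested.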

How the results depend on the processing

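The replicate letters did not pair the genotypes (correlation of same-letter deviations −0.068 in total RNA and 0.038 in AGO2-IP). With the replicate block, 6 of the 10 genes were called in AGO2-IP, where 16.8% of abundant genes were lower (Hspa5 and Hsp90b1 did not pass, adjusted p = 0.0961 and 0.0782), 8 genes in all in the interaction, and 0 genes in total RNA. With a replicate block within each genotype, an alternative chosen after seeing the data, 4 of the 10 and 1105 genes were called in the interaction, and the counts for AGO2-IP against total RNA stayed at 0 and 5. Of 138 alternative values in AGO2-IP, 93 kept direction and call, 41 kept direction and lost the call, 3 gained it and 1 reversed, and the cause was not tested. Another scaling moved the median of all genes most with TMM factors set on genes counted in total RNA, to 0.16, where 6 of the 10 and 8.79% of abundant genes were called lower, and 85.5% of calls were higher against 69.4%. That share was 53.9% with the offset for GC content and exon length, which left the median at −0.10, and 54.1% without a filter on low counts.

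In AGO2-IP the number of the 10 genes called was 4 with DESeq2, 0 with a minimum mean count of 50, 3 with all 8 libraries in one fit (4.76% of abundant genes lower) and 0 to 8 with 1 library left out. All genes called there numbered 4158, and 838, 274, 688 and 918 to 3331 in the same order. In the interaction the members called were 7 with the GC and length offset, 1 with DESeq2, 8 with the replicate block and that offset (27.8% of abundant genes lower), and 0 to 4 with 1 library left out. All genes called were 1009, 120 and 1919 in that order, 2 with TMM factors set on genes counted in total RNA, 2 with a minimum mean count of 50, and 0 to 1547 with 1 library left out. For AGO2-IP against total RNA the offset gave 9 of the 10 in WT and 9 in miR-379KO, 10 and 10 with the replicate block added (65.7% and 86.2% of abundant genes lower), and 0 to 2 in WT with 1 library left out.

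Signs of small changes turned. In total RNA these were Hsp90b1 (0.013) and Pdia4 (0.012) with all 8 libraries, and Pdia6 (−0.032, and −0.033 with the replicate block) and Canx (0.0053, with the block 0.0062) with the offset. With 1 library left out, total RNA values ran from −0.29 to 0.21 for Hsp90b1, −0.20 to 0.10 for Pdia4, −0.075 to 0.17 for Pdia6, −0.27 to 0.083 for Canx, −0.044 to 0.21 for Ddit3, −0.25 to 0.14 for Atf4 and −1.15 to 0.59 for Trib3. For Trib3 they ran from −1.14 to 0.40 in AGO2-IP and −1.41 to 0.91 in the interaction, which was 0.018 with TMM factors set on genes counted in total RNA and 0.11 with a minimum mean count of 50. Recovery in WT turned with a minimum mean count of 50 for Hspa5 (0.11), Pdia4 (0.11), Pdia6 (0.092), Canx (0.013) and Ddit3 (0.012), with the offset for Hsp90b1 (−1.84, and −1.85 with the replicate block added), and with the replicate block for Pdia4 (0.000483). With 1 library left out it ran from −0.44 to 0.11 for Hspa5, −0.30 to 0.28 for Hsp90b1, −0.43 to 0.0024 for Pdia4, −0.59 to 0.18 for Pdia6, −0.54 to 0.11 for Ddit3 and −2.02 to 0.29 for Trib3. Where an arm kept 1 library, it was assumed to vary like the others. Depth limits Ddit3 and Trib3 most, with 18 to 68 AGO2-IP counts.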
